A study of Homo sapiens with 3 samples.

Results

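The miR-29 family comprises the mature miRNAs cut from the hairpins of MIR29A, MIR29B1, MIR29B2 and MIR29C. Its 6 members here were taken by name from the 1149 mature miRNAs of the deposited table: hsa-miR-29a-3p, hsa-miR-29b-3p and hsa-miR-29c-3p from the 3′ arms, and hsa-miR-29a-5p, hsa-miR-29b-1-5p and hsa-miR-29c-5p from the 5′ arms. All 6 were listed. The hsa prefix, for human, is left out below where the text is not giving a level. The assay was small RNA sequencing of CAL-27, a human tongue cancer line of squamous origin in wide use, with 3 libraries and 1 library per group. RR was the radioresistant group, given X-rays at 2 Gy a day in 2 cycles of 5 days with 2 weeks of recovery after each cycle, from which single-cell clones were then isolated. Mock was, by the design text, given 2 Gy once, and CC was the untreated control. Which of the irradiated libraries received which schedule is in doubt: the treatment tag with the dose stands on RR and the tag naming irradiation alone stands on Mock. Every value below belongs to the library as its title names it. The sources do not say whether a library was made from 1 clone or from several.

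A miRNA hairpin is cut to a short duplex, of which usually the guide strand is loaded into Argonaute while its partner, the passenger strand, is degraded. The guide then pairs with messenger RNAs through its seed, bases 2 to 8 from the 5′ end. In the miR-29 family the 3′ arm is the usual guide. Its best known targets are transcripts of the extracellular matrix (collagens, fibrillin and elastin), the de novo DNA methyltransferases DNMT3A and DNMT3B, and the survival factor MCL1. The family is known as a brake on fibrosis and as a tumour suppressor in several cancers.

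The 3′ arms are shown first because they share 1 seed, in capitals, and differ so little outside it that their reads could be hard to assign.
miR-29a-3p: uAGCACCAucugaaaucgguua
miR-29b-3p: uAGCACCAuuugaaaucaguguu
miR-29c-3p: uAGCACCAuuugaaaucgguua
Counted from the 5′ end, miR-29c-3p differed from miR-29a-3p by the single substitution C10U. From miR-29c-3p to miR-29b-3p the substitutions were G18A, U21G and A22U, and miR-29b-3p is 1 base longer. None of the other listed miRNAs outside the family carried the seed AGCACCA. The sources used here do not say how a read matching several miRNAs was assigned, and the split between miR-29a-3p and miR-29c-3p is therefore uncertain. The file's own family column also separated them from their relatives: it placed miR-29a-3p and miR-29c-3p under mir-3556 and the others under mir-29.

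The 5′ arms are shown because, in contrast, each carried a seed of its own that no other listed miRNA shared.
miR-29a-5p: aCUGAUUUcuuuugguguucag
miR-29b-1-5p: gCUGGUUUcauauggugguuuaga
miR-29c-5p: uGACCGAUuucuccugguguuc
The table's sequences of all 6 members matched the RefSeq entries on GRCh38.p14 base for base.

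The hairpins lie in pairs on chromosomes 7 and 1, all on the minus strand. MIR29A (chr7:130876747-130876810) and MIR29B1 (chr7:130877459-130877539) are 648 bases apart. MIR29C (chr1:207801852-207801939) and MIR29B2 (chr1:207802443-207802523) are 503 bases apart. In GENCODE release 29, on GRCh38, MIR29B1 lies within an exon of the long non-coding RNA gene LINC-PINT, which MIR29A overlaps by 2 bases. Both chromosome 7 hairpins also lie wholly within 2 other long non-coding RNA genes, AC016831.6 on the same strand and LINC00513 on the opposite strand. MIR29B2 and MIR29C lie within an exon of MIR29B2CHG, their host gene. miR-29b-3p is identical in MIR29B1 and MIR29B2, so its reads cannot be traced to a chromosome, whereas miR-29b-1-5p comes from MIR29B1 alone. The chromosome 7 hairpins are printed because nearly all reads of the family were on their arms, which are in capitals, the 5′ arm first.
MIR29A: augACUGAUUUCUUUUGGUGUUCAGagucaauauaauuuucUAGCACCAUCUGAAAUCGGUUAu
MIR29B1: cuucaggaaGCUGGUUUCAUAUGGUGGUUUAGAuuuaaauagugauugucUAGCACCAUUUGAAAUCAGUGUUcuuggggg

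The libraries held 10473400 reads in RR, 10632785 in Mock and 10769990 in CC by the total behind the deposited scale, of which the listed miRNAs took 20.5%, 23.2% and 16.3%. Levels are in rpm, reads per 1000000 reads of that total, and 1 read was worth 0.0929 to 0.0955 rpm. Intervals are exact 95% intervals for counting error only. They take reads as independent, and PCR copies, which are counted as reads, would make them too narrow. As each group is 1 library, the spread between replicates is unknown and there are no p-values. A read covers a whole mature miRNA, so no correction for length was made, but the adapter ligation of such kits favours some sequences over others, which bears on levels compared between miRNAs. The squamous markers summed to 45298 rpm in RR, 29789 rpm in Mock and 38878 rpm in CC. miR-205-5p carried the lower sum of Mock, at 14174 rpm in Mock and 25945 rpm in CC, and the other 5 of the 6 were higher in Mock than in CC. The fibroblast and mesenchymal markers listed (3 of 5) summed to 6.49, 5.64 and 6.41 rpm in the same order. Most of that was miR-143-3p, while miR-199a-5p had 0 reads in RR, 12 in Mock and 2 in CC.

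miR-29a-3p carried almost the whole family. The level of hsa-miR-29a-3p was 726 rpm in RR (709 to 742), 1030 rpm in Mock (1011 to 1050) and 621 rpm in CC (606 to 636), which is 7599, 10957 and 6687 reads. Mock was the highest library and the intervals of the 3 libraries did not overlap. Among the 1149 listed miRNAs it ranked 38th in RR, 31st in Mock and 38th in CC, and it made up 0.354%, 0.445% and 0.382% of the miRNA reads. A level in rpm is relative to the library total, so it also moves when other RNAs take more or fewer of the reads. RR thus stood above CC in rpm (726 and 621) but below it in percent of miRNA reads (0.354% and 0.382%), while Mock was highest on both scales. In bulk RNA, fewer cells carrying a miRNA also cannot be told apart from less of it per cell.

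The other 3′ arms were scarce. The level of hsa-miR-29b-3p was 7.26 rpm in RR (5.72 to 9.08), 12.9 rpm in Mock (10.8 to 15.2) and 6.96 rpm in CC (5.48 to 8.73). Mock was again the highest, and RR and CC overlapped almost fully. hsa-miR-29c-3p had 6 reads in RR, 12 in Mock and 8 in CC, or 0.573, 1.13 and 0.743 rpm, with overlapping intervals. Of the summed 3′ arms, miR-29a-3p gave 98.9% in RR (exact Clopper-Pearson interval 98.7% to 99.2%), 98.7% in Mock (98.4% to 98.9%) and 98.8% in CC (98.5% to 99.0%). miR-29b-3p gave 0.989%, 1.23% and 1.11%, and miR-29c-3p 0.0781%, 0.108% and 0.118%. For each of the 3 miRNAs, the intervals of its share overlapped between the libraries.

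Of the 5′ arms, miR-29b-1-5p had by far the most reads. The level of hsa-miR-29b-1-5p was 11.3 rpm in RR (9.33 to 13.5), 21.2 rpm in Mock (18.5 to 24.1) and 10.03 rpm in CC (8.23 to 12.1), from 118, 225 and 108 reads. Mock stood above the other libraries, whose intervals overlapped. hsa-miR-29a-5p had 3 reads in RR, 3 in Mock and 2 in CC, at or under the floor of 3 reads, and hsa-miR-29c-5p had 5, 5 and 2. Neither allows a difference between libraries to be seen at this depth. miR-29b-2-5p, the 5′ arm of MIR29B2 and outside the 6 members, had 1 read in RR and 0 in Mock and in CC; a count of 0 allows up to 0.282 rpm in Mock and 0.279 rpm in CC at the floor of 3 reads, and up to 0.347 and 0.343 rpm by the exact interval.

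The order of levels was the same at the top in the 3 libraries: miR-29a-3p, then miR-29b-1-5p, miR-29b-3p and miR-29c-3p. The neighbours miR-29b-1-5p and miR-29b-3p had separate intervals in RR and Mock and overlapping ones in CC. miR-29c-3p, miR-29c-5p and miR-29a-5p overlapped one another in each library.

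**Figure D1:**
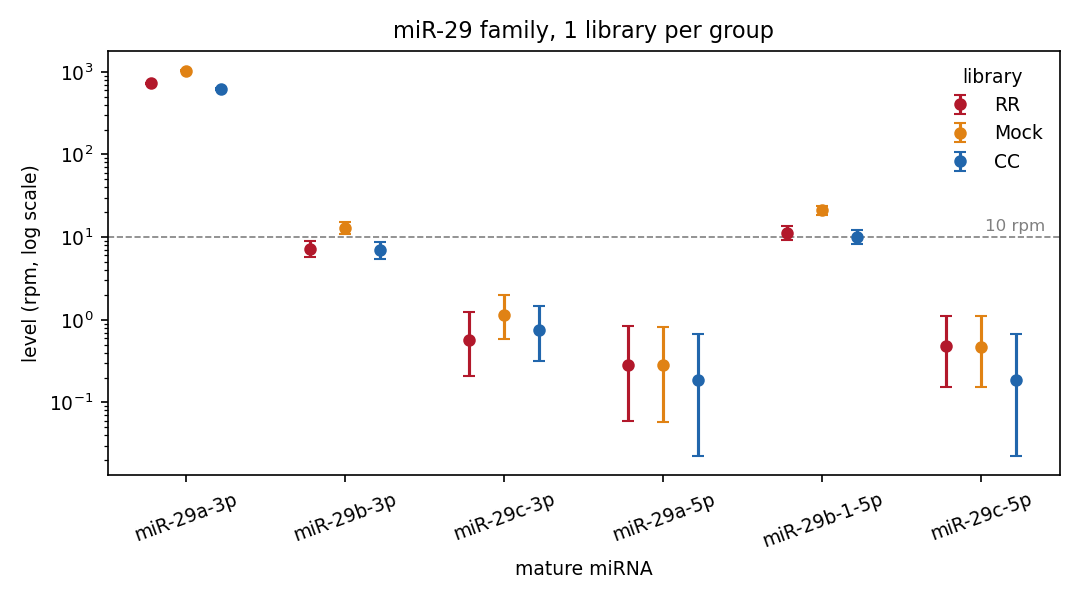
Level of each miR-29 member (rpm, log axis) in RR, Mock and CC; points are single libraries, bars exact 95% Poisson intervals, and the dashed line marks 10 rpm. miR-29a-3p lies between 621 and 1030 rpm, miR-29b-3p between 6.96 and 12.9 rpm and miR-29b-1-5p between 10.03 and 21.2 rpm. The other 3 members lie near or under 1 rpm.

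Arm use differed between the hairpins. For MIR29A, reads of the 3′ arm outnumbered those of the 5′ arm 2533 to 1 in RR (interval of the ratio 866 to 12286), 3652 to 1 in Mock (1249 to 17713) and 3344 to 1 in CC (925 to 27614). Over the 3 libraries together, 99.97% of its reads lay on the 3′ arm, rank 10 of the 115 hairpins with both arms listed under the same name and 1 arm at a mean of 10 rpm or more, where the median hairpin had 98.1% on its major arm. For miR-29b more reads lay on the 5′ arm than on the 3′ arm, the usual guide. Adapter ligation that favours 1 sequence over another bears on this split, and its part was not tested. miR-29b-1-5p gave 60.8% of the reads of miR-29b-3p and miR-29b-1-5p together in RR (53.6% to 67.7%), 62.2% in Mock (56.9% to 67.2%) and 59.0% in CC (51.5% to 66.2%). Each interval lay above an equal split, and the intervals of the libraries overlapped. miR-29b-3p also holds any 3′ arm reads of MIR29B2, which alone would make the 5′ share within MIR29B1 itself as high or higher. However, miR-29b-1-5p has only 2 mismatches to miR-29b-2-5p over the bases compared. Reads of MIR29B2 counted as miR-29b-1-5p would act the other way, and the sources used here do not say how such reads were assigned. Among the 115 hairpins, 12 had a major arm with under 75% of the reads, the lowest being miR-200a at 51.9%. miR-29b is not among the 115, because its arms are listed under different names. For MIR29C, the 5′ arm had 5 of 11 reads in RR, 5 of 17 in Mock and 2 of 10 in CC, too few to rank the arms.

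**Figure D2:**
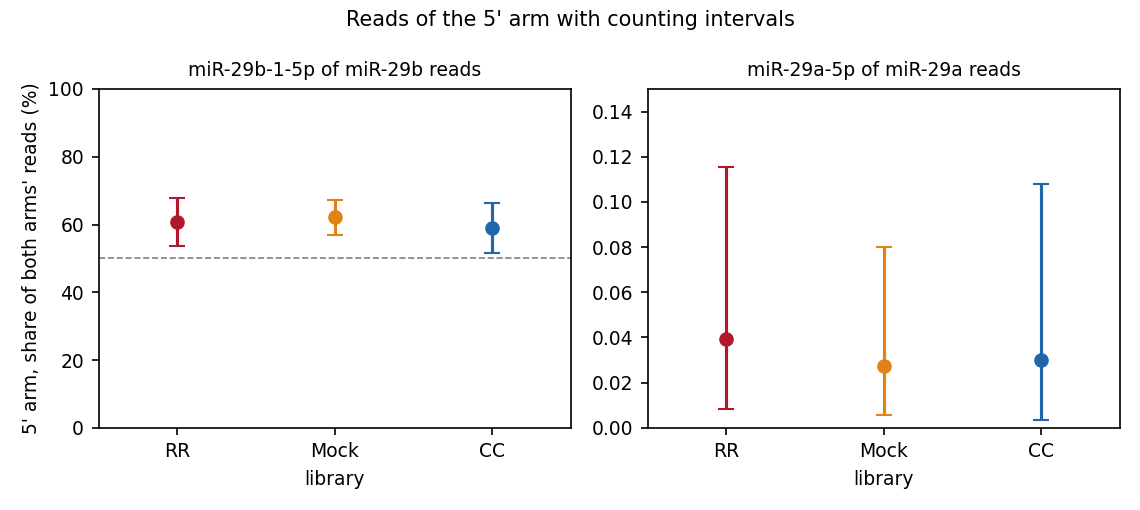
Share of the 5′ arm in the reads of both arms (%), for miR-29b on the left and miR-29a on the right, which has an axis of its own reaching 0.15%; points are the RR, Mock and CC libraries and bars exact 95% binomial intervals. The miR-29b shares lie at 59.0% to 62.2%, above the dashed line of an equal split, and the miR-29a shares at 0.0274% to 0.0395%.

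The library titled RR, described as the radioresistant group, is set against the untreated control by RR over CC. Of the 6 members, miR-29a-3p and miR-29b-1-5p averaged 10 rpm or more across the libraries, and neither of these 2 reached 2-fold on the log2(rpm + 1) scale. Of the 208 miRNAs with such an average, 0.962% were higher by 2-fold or more in RR and 0.481% lower. The summed 3′ arms stood at 733 rpm in RR and 629 rpm in CC, 1.17-fold higher in RR (1.13 to 1.21). That was less than the median of the 208 miRNAs, 1.28-fold, and miR-29a-3p, at 1.17-fold, ranked 147th of them from the highest. The direction follows the library scale: the log2 ratio of the sum was 0.22 as deposited, but -0.10 with median-ratio scaling, -0.10 with the 10 most abundant miRNAs left out of the scaling and -0.11 relative to the miRNA reads alone. miR-29b-1-5p was 1.12-fold (0.858 to 1.47) and miR-29b-3p 1.04-fold (0.747 to 1.45), intervals that include 1. miR-29c-3p had a ratio of 0.771 (0.221 to 2.53) and miR-29c-5p of 2.57 (0.421 to 27.0), each from fewer than 10 reads per library.

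Set against CC, the library labelled Mock had more of miR-29a-3p, miR-29b-3p and miR-29b-1-5p, the members whose intervals excluded 1. The summed 3′ arms stood at 1045 rpm in Mock and 629 rpm in CC, 1.66-fold higher in Mock (1.61 to 1.71), beside a median of 1.21-fold over the 208 miRNAs. miR-29a-3p was 1.66-fold higher (1.61 to 1.71), rank 53 of 208 from the highest. miR-29b-3p was 1.85-fold higher (1.39 to 2.49) and miR-29b-1-5p 2.11-fold higher (1.67 to 2.68), rank 25. miR-29c-3p, at 1.52-fold (0.571 to 4.28), had an interval that includes 1. By the rule of an average of 10 rpm and 2-fold on the log2(rpm + 1) scale, miR-29b-1-5p alone of the 2 measured members passed, at a log2 ratio of 1.01, just past the threshold of 1. The background was 12% of the 208 miRNAs higher and 3.85% lower, so the count says little about the family. The call was lost with median-ratio scaling, with the 10 most abundant miRNAs left out of the scaling, relative to the miRNA reads alone, with the GC trend removed and with a pseudocount of 10.

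RR against Mock sets the irradiated libraries beside each other, and it shares its libraries with the comparisons above, so its values follow from theirs. The summed 3′ arms were 1.42-fold lower in RR (1.38 to 1.47), at 733 rpm in RR and 1045 rpm in Mock, while the median of the 208 miRNAs was 1.05-fold higher in RR. miR-29a-3p was 1.42-fold lower in RR (1.38 to 1.46), miR-29b-3p 1.78-fold lower (1.33 to 2.38) and miR-29b-1-5p 1.88-fold lower (ratio 0.532, 0.422 to 0.668). Neither of the 2 measured members reached 2-fold, beside 8.17% of the 208 miRNAs higher in RR and 4.81% lower. Ranked by log2 ratio, 14 of the 208 miRNAs lay below miR-29b-1-5p and 37 below miR-29a-3p.

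**Figure D3:**
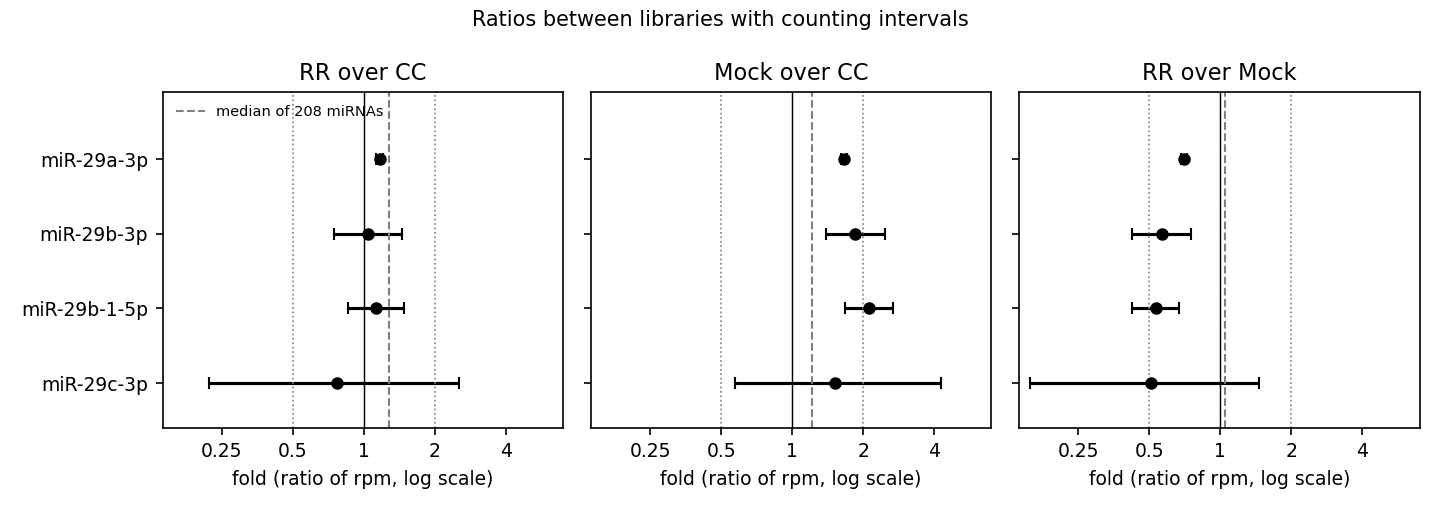
Ratio of rpm between 2 libraries (log axis) for the 4 miR-29 members with the most reads, in 3 panels: RR over CC, Mock over CC and RR over Mock. Bars are exact 95% counting intervals, the solid line marks 1, dotted lines mark 2-fold either way and the dashed line is the median of 208 miRNAs. miR-29a-3p lies left of that median in RR over CC (1.17) and RR over Mock (0.704) and right of it in Mock over CC (1.66).

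Ratios to Mock moved with the base composition of the miRNA. Across the 208 miRNAs GC content and the log2 ratio had a Spearman correlation of -0.55 in Mock over CC, 0.60 in RR over Mock and 0.05 in RR over CC, where miRNAs share a library and are not independent. GC content was 40.9% in miR-29a-3p, 41.7% in miR-29b-1-5p, 34.8% in miR-29b-3p, 36.4% in miR-29c-3p and miR-29a-5p, and 50% in miR-29c-5p, which the correction for GC leaves unmoved. With a linear GC trend removed, the log2 ratio of the summed 3′ arms in Mock over CC was 0.47, against 0.73 as deposited, and the median of all 208 miRNAs was 0.31. In RR over Mock the log2 ratio of the sum was -0.22, against -0.51 as deposited. The median of all 208 miRNAs there was 0.09, against 0.06 as deposited. miR-29b-1-5p stood at 0.78 in Mock over CC and -0.61 in RR over Mock after the correction. The part of base composition in the family's ratios beyond this linear trend was not tested.

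**Figure D4:**
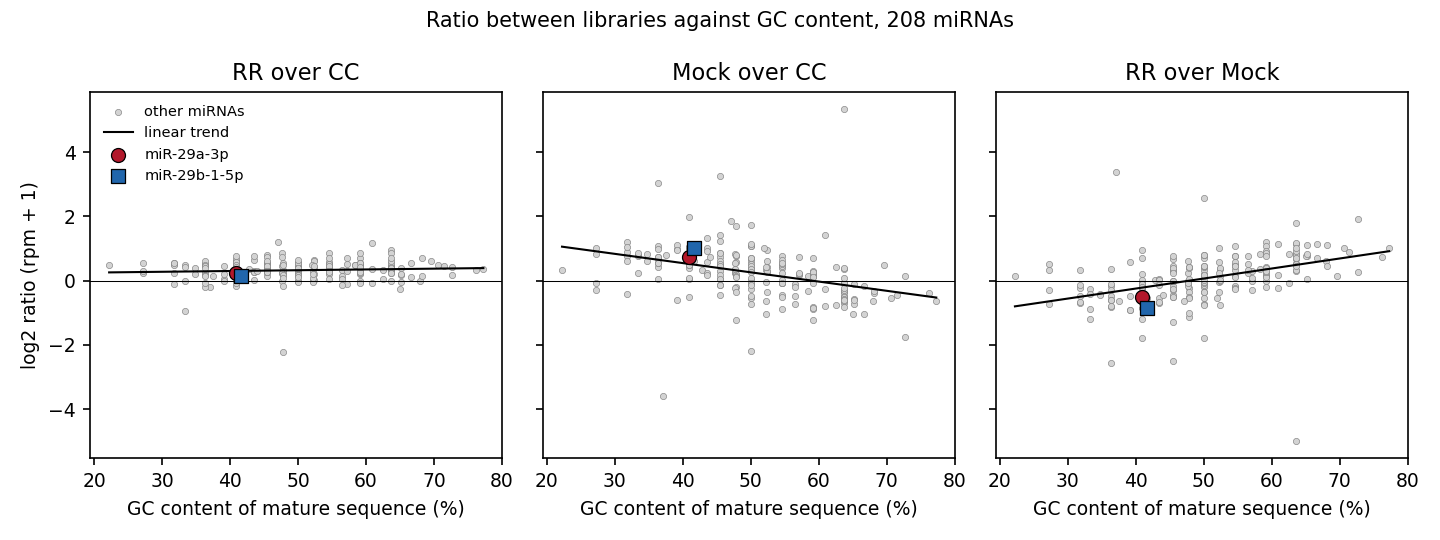
Log2 ratio of rpm + 1 against the GC content of the mature sequence (%) for 208 miRNAs, in 3 panels (RR over CC, Mock over CC, RR over Mock), with the linear trend as a line. miR-29a-3p (circle, 40.9% GC) and miR-29b-1-5p (square, 41.7% GC) lie above 0 in Mock over CC, at 0.73 and 1.01, and below it in RR over Mock, at -0.51 and -0.85.

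Erythroid markers also stood high in the library labelled Mock. All 3 were listed and summed to 12.2 rpm in RR, 408 rpm in Mock and 9.47 rpm in CC. Nearly all of each sum was miR-486-5p, at 11.5, 398 and 8.73 rpm in the same order. miR-451a stood at 0.764, 7.71 and 0.743 rpm, and miR-144-3p at 2.45 rpm in Mock and 0 reads in RR and CC. The 3 leukocyte markers listed of 4 summed to 0.0955, 1.98 and 0.0929 rpm in the same libraries. Muscle markers summed to 409 rpm in RR, 345 rpm in Mock and 341 rpm in CC, endothelial markers to 81.9, 66.9 and 55.2 rpm, and the hepatocyte marker stood at 2.96, 5.45 and 4.46 rpm. Nearly all of the muscle sum was miR-1-3p, whereas miR-206 stood at 3.63 rpm in RR, 25.5 rpm in Mock and 1.76 rpm in CC, 14.4-fold higher in Mock than in CC (9.07 to 24.4). The part of these markers in the miR-29 values of Mock was not tested.

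Within a library, where totals cancel, the chromosome 7 products can be set against each other. Per 1000 reads of miR-29a-3p there were 15.5 reads of miR-29b-1-5p in RR (12.8 to 18.6), 20.5 in Mock (17.9 to 23.4) and 16.2 in CC (13.2 to 19.5). Compared directly, this ratio was lower in RR than in Mock, by a factor of 0.756 (exact conditional interval 0.599 to 0.951). In Mock over CC the factor was 1.27 (1.00 to 1.62, the lower limit just above 1) and in RR over CC 0.961 (0.733 to 1.26).

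miRNAs of other families that share targets or a matrix role with miR-29 give the setting for these values. The list of miRNAs that target DNA methyltransferases had 7 members outside the family, 5 of them averaging at least 10 rpm, and 0 passed 2-fold in any comparison. With shares of 0.962% higher and 0.481% lower over the 208 miRNAs in RR over CC, and 12% or less each way in the others, 0 of 5 says nothing particular to the list. Their median log2 ratio was 0.50 in RR over CC, 0.62 in Mock over CC and -0.20 in RR over Mock, beside 0.36, 0.28 and 0.06 for all 208 miRNAs. miR-148a-3p, which targets DNMT1, was the most abundant, with levels of 2087 rpm (RR), 2482 rpm (Mock) and 1609 rpm (CC), above miR-29a-3p in each library. Its fold was 1.30 in RR over CC (1.27 to 1.32), 1.54 in Mock over CC (1.51 to 1.57) and 0.841 in RR over Mock (0.826 to 0.856). For miR-185-5p the levels were 219 rpm (RR), 242 rpm (Mock) and 149 rpm (CC), and for miR-148b-3p, which has the seed of miR-148a-3p, 109, 125 and 95.9 rpm.

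Of 12 miRNAs tied to the matrix and fibrosis, 11 had a mean of 10 rpm or more. In RR over CC 0 passed 2-fold, with a median log2 ratio of 0.38. In Mock over CC 2 were higher by 2-fold and 0 lower, with a median of 0.54: miR-21-5p and miR-196a-5p, where miR-196a-5p, chosen after its value was seen, had 124 rpm in Mock and 59.1 rpm in CC. In RR over Mock 0 were higher and 1 lower, miR-21-5p, with a median of -0.18. Of the 208 miRNAs, 0.962% were higher and 0.481% lower in RR over CC, and 12% and 3.85% in Mock over CC. In RR over Mock the shares were 8.17% higher and 4.81% lower. The median log2 ratios of all 208 were 0.36, 0.28 and 0.06 in the same order. Beside these shares, counts among 11 miRNAs say little about the list. The highest mean over the 3 libraries was that of miR-21-5p, a promoter of fibrosis that the series title ties to radioresistance, through its level in Mock, with levels of 6209 rpm (RR), 36929 rpm (Mock) and 4475 rpm (CC). In RR and CC it lay below let-7a-5p, at 15839, 17947 and 11155 rpm in RR, Mock and CC, and miR-200c-3p, a repressor of the mesenchymal factors ZEB1 and ZEB2, at 14184, 13918 and 11739 rpm.

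By the distance between centred log2 values over the 3 libraries, the miRNAs nearest to the summed 3′ arms, of 206 outside the family, were miR-181b-5p, miR-221-3p and miR-224-5p, with distances of 0.021, 0.048 and 0.061. The level of miR-181b-5p was 176 rpm (RR), 251 rpm (Mock) and 148 rpm (CC). That of miR-221-3p was 5787, 8381 and 4818 rpm in the same libraries, and that of miR-224-5p 208, 282 and 168 rpm. The likeness rests on 3 libraries and says nothing of shared control.

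**Figure D5:**
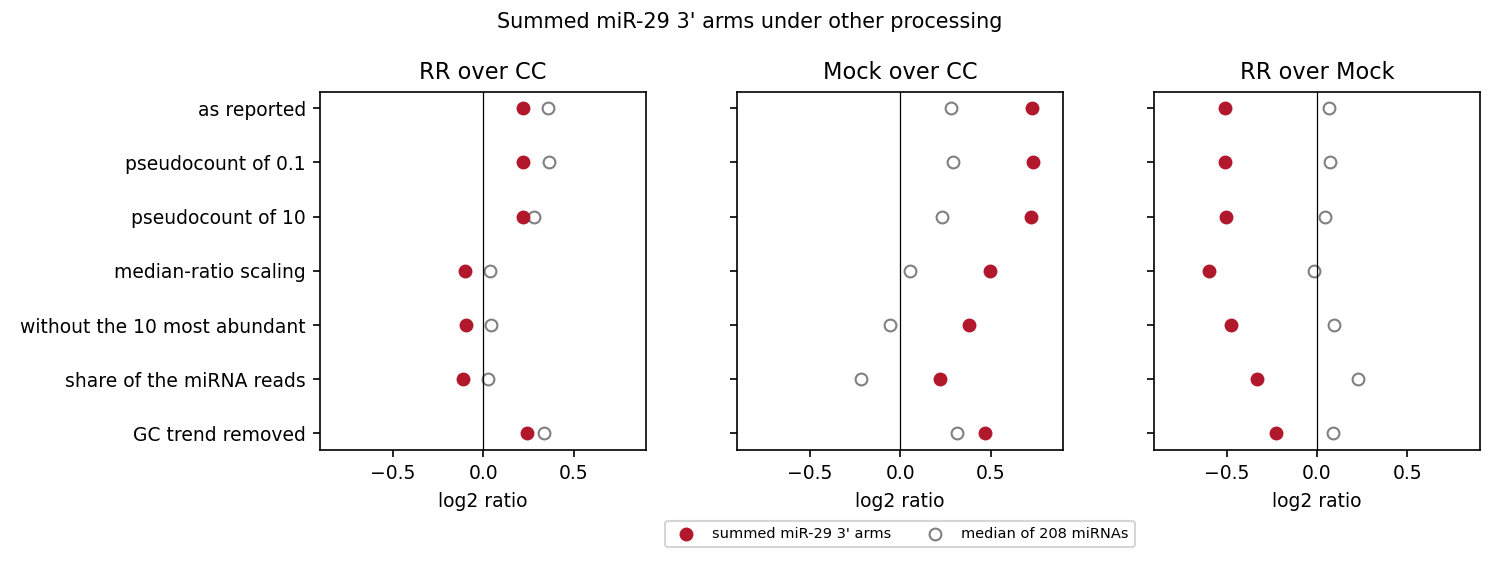
Log2 ratio of the summed miR-29 3′ arms (filled) and median log2 ratio of 208 miRNAs (open) under 7 ways of processing, in 3 panels (RR over CC, Mock over CC, RR over Mock). The sum lies below the median in each setting of RR over CC and RR over Mock and above it in each setting of Mock over CC, while its sign in RR over CC changes with the library scale, from 0.22 as deposited to -0.11 relative to the miRNA reads alone.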

How the data were processed

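Small RNA libraries were prepared from total RNA with a ligation kit, size-selected and sequenced by Illumina NovaSeq, per the labels' protocols. Bowtie and GRCh38 are named without a role in the submitters' processing notes; the sources used here do not give the trimming, the miRNA reference, the mismatches or the handling of multiply matching reads. The authors deposited 1149 miRNAs in 3 columns named TPM. The deposited values behave as RPM: 100% were whole multiples, within 0.01 of a read, of 1 step per library, so whole reads were recovered. With 1 library per group no count test was run.

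Columns were matched through the treatment tag. Levels have exact Poisson intervals; ratios use Clopper-Pearson limits of a read share. Log2 ratios add 1 rpm; counts need a mean of 10 rpm and 2-fold. The named miRNAs are the members, the 3 most abundant of each list and the 3 nearest patterns, with miR-29b-2-5p and marker sums. Members and lists were chosen with earlier results of these data known. Alternatives changed the pseudocount, filter, fold, library scale and GC trend. Intervals and counts were tested on simulated Poisson counts. These hold no PCR copies and no spread between replicates, so that test does not bear on either. Sequences are from RefSeq (GRCh38.p14), where all 6 members matched. Tools were scipy 1.17.1, numpy 2.4.6, matplotlib 3.10.9 and pandas 2.3.3 under Python 3.11.15.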

Additional observations from a re-analysis of the deposited data

How the results depend on the processing

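Log2 ratios of the summed 3′ arms were 0.22 in RR over CC, 0.73 in Mock over CC and -0.51 in RR over Mock. With median-ratio scaling they were -0.10, 0.50 and -0.60; with the 10 most abundant miRNAs left out of the scaling, -0.10, 0.38 and -0.48; relative to the miRNA reads alone, -0.11, 0.22 and -0.33; and with the GC trend removed, 0.24, 0.47 and -0.22. Pseudocounts of 0.1 and 10, or miR-29a-3p alone, stayed within the counting interval. A change of library scale moves all miRNAs alike: the sum stayed 0.14 below the median of all 208 in RR over CC under the 3 scalings. In Mock over CC the count of measured members past 2-fold was 1, and it was 0 with a pseudocount of 10, each scaling, the GC trend removed, a mean of 100 rpm or more or a 4-fold threshold, and 2 at 1.5-fold. In RR over Mock it was 0, and 1 at 1.5-fold. In RR over CC it was 0 under each alternative. Arm ratios and shares among the 3′ arms stayed within their intervals with the GC trend removed. No paired analysis was possible because each group has 1 library. Depth limits miR-29c-3p, miR-29a-5p and miR-29c-5p, with 12 reads or fewer in each library.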
